A study of Schizosaccharomyces pombe with 50 samples.

Results

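The measurement described here is chromatin immunoprecipitation followed by sequencing (ChIP-seq) for trimethylation of lysine 9 on histone H3 (H3K9me3) in the fission yeast Schizosaccharomyces pombe. Quiescent (Q) cells were compared with vegetative (V) cells. The members are all windows of the tables that hold the H3K9me3 libraries, 3 V and 3 Q, which are 6 of the 50 samples of the series. Each table had 6613 windows, of which 6569 lay on the 3 nuclear chromosomes, 38 on mitochondrial DNA and 6 on other contigs, and the mitochondrial windows were counted apart. V cells were taken in mid-log growth in PMG, a defined minimal medium with glutamate as nitrogen source. Q cells had been kept for 24 h in the same medium without nitrogen, which arrests them in G0. Every library, V and Q, came from the single strain Hu3112 with the genotype mat1-M smt-0 pht1-myc, in which the histone H2A.Z carries a Myc tag and the cells do not switch mating type, so that a wild-type strain was not part of this comparison.

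In fission yeast a single methyltransferase, Clr4, places methyl groups on lysine 9 of histone H3. The chromodomains of Clr4 and of the HP1-family proteins Swi6 and Chp2 bind the methylated tail, by which the mark spreads and transcription is repressed. The RNA interference machinery directs Clr4 to the outer repeats of the centromeres, and the mark also covers the subtelomeres, the silent mating-type cassettes and small islands over meiotic genes. H3K9me3 is the form that Swi6 binds in stable heterochromatin, whereas H3K9me2 is also found where heterochromatin is still transcribed. H3K4me3, used below for comparison, is placed near the 5′ end of genes that RNA polymerase II transcribes.

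Sequences are shown for the windows on which the nuclear results turned, read from the RefSeq assembly ASM294v3 on the strand of the gene. The first is 200 bases of the long non-coding RNA gene SPNCRNA.1506 at chrII:2339845-2340044 (plus strand), the window with the largest loss of H3K9me3, where capitals mark the end of a long terminal repeat (LTR) of a retrotransposon. The others are tRNA genes beside a centromere, where capitals mark GTTCGA, the core of the B box at which the RNA polymerase III factor TFIIIC binds. SPCTRNALEU.11 lies at chrIII:1069166-1069244 (plus strand), SPCTRNAPHE.05 at chrIII:1142192-1142264 (minus strand) and SPATRNAPHE.02 at chrI:3752334-3752406 (minus strand).
SPNCRNA.1506: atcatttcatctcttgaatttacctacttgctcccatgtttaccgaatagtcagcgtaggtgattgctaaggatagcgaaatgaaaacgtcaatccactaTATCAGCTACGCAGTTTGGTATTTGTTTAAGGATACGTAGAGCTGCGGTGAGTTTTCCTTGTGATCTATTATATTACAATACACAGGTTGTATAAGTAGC
SPCTRNALEU.11: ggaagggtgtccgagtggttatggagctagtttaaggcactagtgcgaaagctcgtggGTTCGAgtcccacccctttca
SPCTRNAPHE.05: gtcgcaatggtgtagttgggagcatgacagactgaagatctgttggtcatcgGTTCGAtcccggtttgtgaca
SPATRNAPHE.02: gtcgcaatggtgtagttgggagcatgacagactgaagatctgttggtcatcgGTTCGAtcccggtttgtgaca
The last 2 differed at 0 bases. The letters GTTCGA were found on the gene strand of 98 of 126 nuclear tRNA genes (77.8%), and on either strand of 78.6% of them.

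Values below are normalised read counts, that is reads in a window scaled by a size factor per library. Reads in ORF windows, which span a gene with 200 bases on each side for most genes, numbered between 952672 and 7034310 per library. TSS windows were 400 bases wide and began at the lower coordinate of the gene window, so for genes on the minus strand (49.7% of those matched) they covered the 3′ end and not the start. The libraries of replicate 1 were the deepest in both states and the least enriched in heterochromatin. Across TSS windows, the Q replicate 1 library resembled total histone H3 of the same cells (Spearman rho 0.953, a description over nuclear windows), more than Q replicates 2 and 3 did (0.889 and 0.802). It resembled the same-numbered Q libraries of H3K9me2 (0.9503) and of RNA polymerase II phosphorylated at serine 5 (0.9498) almost as much. For V replicate 1, rho was 0.350 with H3, 0.547 with H3K9me2 and 0.325 with this polymerase form. Whether the likeness in Q replicate 1 reflects weak enrichment was not tested. The V replicate 1 library stood apart from V replicates 2 and 3 (rho 0.408 and 0.394), which resembled each other (0.760). Values are therefore given by library. The replicate number entered the fits as a block, although the deviations of V and Q libraries from their group means correlated by number for replicates 1 and 3 (0.61 and 0.56 in ORF windows) and not for replicate 2 (−0.11).

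The label H3K9me3 was checked against regions known to carry the mark. For each list of ORF windows, the share of nuclear reads was divided by the same share in the H3 library of the same state and replicate number, and given as a log2 ratio. In the 33 subtelomeric windows, those within 50 kb of an end of chromosome I or II, this ratio was 0.72, 2.13 and 3.14 in V and 0.27, 1.34 and 2.37 in Q. In the mating-type windows (mat1-Mi and mat2-Pc), it was 1.44, 2.93 and 4.005 in V and 0.50, 1.85 and 3.08 in Q. Both lists lay above 0 in all 6 libraries. The 14 euchromatic reference genes, such as act1, lay between −0.30 and 0.47, a range that holds the subtelomeric value of Q replicate 1 (0.27). The median H3K9me3 change minus the H3 change was −0.56 in the 24 subtelomeric windows tested and −0.44 in these 14 genes. In the subtelomeric and mating-type lists, Q was lower than V at each replicate number. The groups overlapped because replicates spread more widely than the states differed: mean Q minus V was −0.67 in subtelomeric windows (p = 0.5) and −0.98 in mating-type windows (p = 0.5, two-sided exact permutation tests of 3 against 3 libraries, which cannot go below 0.1).

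**Figure D1:**
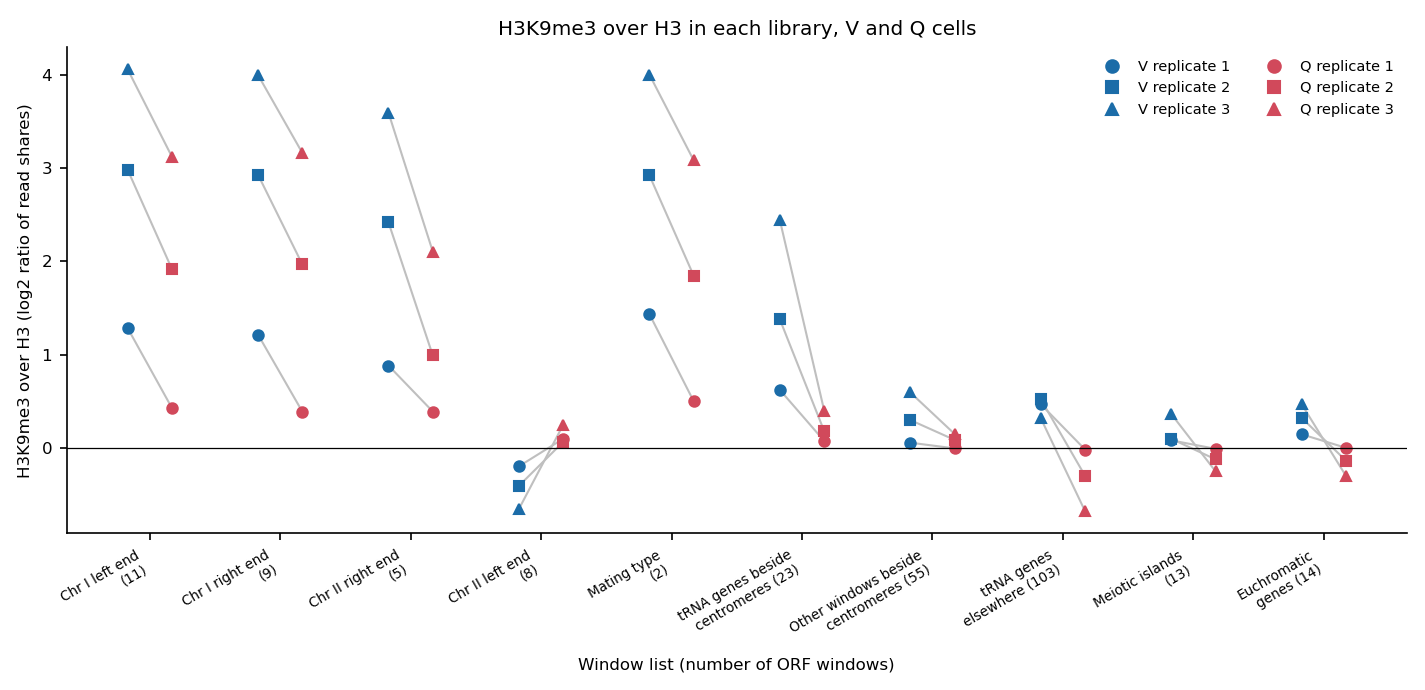
H3K9me3 over H3 (log2 ratio of read shares, vertical axis) in lists of ORF windows (horizontal axis), with a point for each of the 3 V and 3 Q libraries and the marker giving the replicate number. Subtelomeric windows are shown by chromosome end. Mating-type windows lie above 0 in all 6 libraries, with replicate 1 lowest in both states and V above Q at each number. At the left end of chromosome II the V libraries lie below 0 and Q is above V at each number.

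With the replicate number as a block, windows near the ends of chromosome I fell in H3K9me3, and windows at the left end of chromosome II rose. Of the 24 subtelomeric ORF windows with enough reads to test, 12 fell at an adjusted p under 0.05 (limma with the replicate number as a block, Benjamini-Hochberg over all windows), beside 4.79% of all nuclear windows tested, and 5 rose, beside 11.1%. The 12 that fell lay at the right end of chromosome I (7), the left end of chromosome I (4) and the right end of chromosome II (1 of 2 tested). The 5 that rose all lay at the left end of chromosome II. Of the 24, 0 fell with V and Q libraries that did not overlap, beside 955 of 6530 nuclear windows. Without the block, limma gave 0 ORF windows an adjusted p under 0.05. The median change of the 24 windows was −0.55 on the log2 scale, beside 0.02 over all nuclear windows. In TSS windows the median of the 17 tested was −0.64, but 1 fell and 1 rose (beside 1.92% and 5.27%), and at the right end of chromosome I 0 of 8 passed the threshold. Changes are relative to the other windows of a library, since the size factors set the scale.

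The most enriched subtelomeric window in V was SPAC212.12, a protein-coding gene on the left arm of chromosome I, near the telomere-linked RecQ-type helicase genes. Its H3K9me3 was 124, 512 and 1320 in V and 70.3, 240 and 538 in Q, so that Q was lower at each replicate number although the groups overlapped. The fold change was −1.06 (SE 0.13, limma adjusted p = 0.000114). Its H3 changed by 0.31 and its H3K9me2 by −1.81. Of the bases of this window, 75.8% lie in words of 36 bases that occur elsewhere in the genome, which limits the placement of its reads. The neighbouring SPAC212.06c, annotated as helicase-like, was 18.2, 72.6 and 203 in V and 11.7, 30.5 and 74.8 in Q (−1.08, SE 0.26, limma adjusted p = 0.0174), with 90.2% of repeated words. Its deposited window has 664 bases, whereas the share of words is over the longer gene of ASM294v3. The intact helicase gene tlh2 at the right end of chromosome II changed by −0.61 (SE 0.14, limma adjusted p = 0.0169) with 90.2% repeated, and the third helicase window, SPBCPT2R1.04c, had too few reads to test.

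Genes without repeated sequence showed the same loss on the right arm of chromosome I. SPAC186.05c, where 0% of words are repeated, changed by −0.82 and SPAC186.06 by −0.79, and the non-coding RNA gene prl61 changed by −0.78, all 3 past the threshold. Over H3, SPAC186.05c stood at 1.39, 3.14 and 4.20 in V and at 0.40, 2.02 and 3.21 in Q. The innermost enriched window on this arm was SPAC186.02c, 48.6 kb from the end. There H3K9me3 over H3 was 0.17, 1.47 and 2.60 in V and 0.20, 1.59 and 2.63 in Q, and the change was 0.05 (SE 0.11, limma adjusted p = 0.76). In this window H3K9me2 changed by −1.74, close to its change in SPAC186.05c (−1.90).

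The extent of the mark differed between ends. At the left end of chromosome I, SPAC212.04c at 21.7 kb was enriched (0.11, 1.80 and 2.91 over H3 in V), and SPAC977.18 at 31.3 kb was not (0.05, −0.07 and 0.15). Averaged over the ends, the log2 ratio over H3 was 2.88 in V and 1.76 in Q within 20 kb, 2.20 and 1.44 between 30 and 40 kb, and 1.30 and 0.984 between 40 and 50 kb. It was −0.12 in V and −0.06 in Q between 50 and 75 kb, so the enrichment ended at about the same distance in both states.

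**Figure D2:**
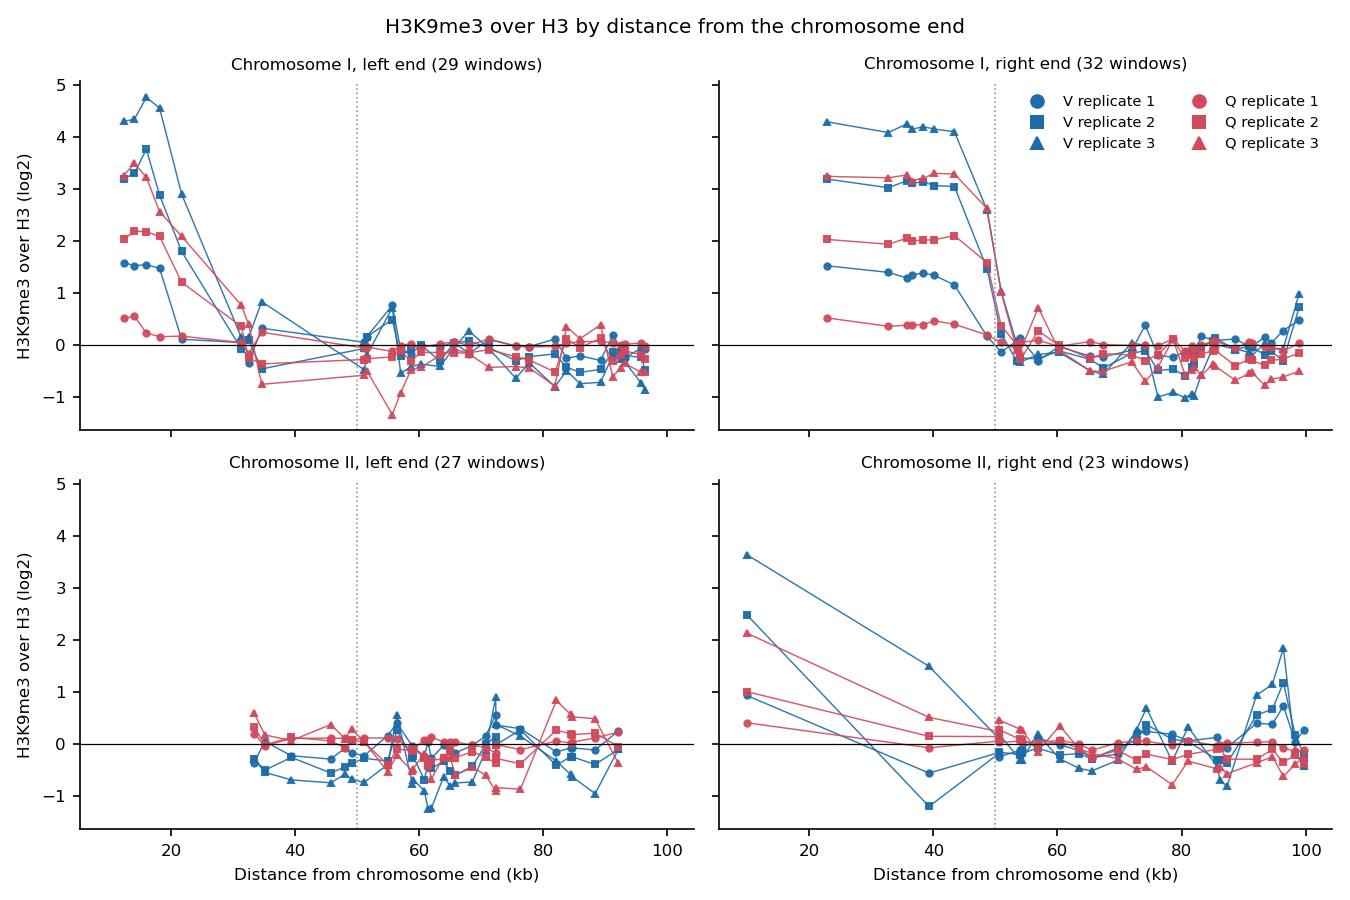
H3K9me3 over H3 (log2, vertical axis) against distance from the chromosome end (kb, horizontal axis) for ORF windows with an H3 value of at least 10 in all 6 libraries, 1 panel for each end of chromosomes I and II, 1 line per library. On the right arm of chromosome I the V lines of replicates 2 and 3 stay above 2 to past 40 kb, and on the left arm of chromosome II no line shows such a plateau.

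At the left end of chromosome II the covered windows carried no enrichment, and the change was the opposite. The 8 windows there had log2 ratios over H3 of −0.20, −0.41 and −0.65 in V and 0.10, 0.07 and 0.25 in Q, and the groups did not overlap (two-sided exact permutation p = 0.1, the smallest possible). SPBPB8B6.02c, the least enriched subtelomeric window in V, rose by 0.77 (SE 0.11), and ght7, a member of the hexose transporter family, rose by 0.55 (SE 0.11, limma adjusted p under the threshold for both). Their H3K4me3 changed by 2.78 each. The outermost 2 windows of this end held too few reads to test.

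Within 20 kb of a centromere, windows fell in H3K9me3 mostly at genes other than tRNA genes, whereas the ratio over H3 fell most at tRNA genes, where H3 rose. Of the 78 ORF windows there, 11 lie inside the centromere bounds used, which include the outer repeats. Of these 11, 10 are tRNA genes. Their mean log2 ratio over H3 was 1.94 in V and 0.92 in Q. In the 18 windows from 0 to 5 kb outside the bounds it was 0.64 and 0.12. Over all 78 windows the summed ratio over H3 was 0.09, 0.36 and 0.70 in V and 0.00, 0.09 and 0.17 in Q (mean Q minus V −0.30, two-sided exact permutation p = 0.3). Of the 69 windows tested, 21 fell at a limma adjusted p under 0.05 and 1 rose, beside 4.79% and 11.1% of all nuclear windows, with a median change of −0.20. By kind, 19 of 55 windows other than tRNA genes fell (median −0.27), and 2 of 14 tested tRNA windows fell and 1 rose (median −0.09). In TSS windows 6 of 68 fell and 1 rose, beside 1.92% and 5.27%. In the 23 tRNA windows among the 78, the ratio was 0.62, 1.38 and 2.44 in V and 0.07, 0.18 and 0.40 in Q. Every V library was above every Q library there (two-sided exact permutation p = 0.1, the smallest possible). The median H3 change of the tRNA windows tested was 0.87. In the other 55 windows the ratio was 0.06, 0.30 and 0.60 in V and 0.00, 0.09 and 0.15 in Q.

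The leucine tRNA gene SPCTRNALEU.11, 1.70 kb from the centromere of chromosome III, was the most enriched of the centromere-side windows in V. Its log2 ratio over H3 was 1.165, 3.11 and 4.38 in V and 0.34, 1.43 and 2.26 in Q, and its H3K9me3 changed by −0.78 (SE 0.12, limma adjusted p = 0.00139). The genes SPBTRNALEU.08 and SPBTRNALEU.10 have the same sequence as the one printed above but lie 1124 kb and 2269 kb from the centromere of chromosome II. They had mean ratios over H3 of 0.46 and 0.27 in V and of −0.33 and −0.25 in Q. The windows of the 3 copies can be told apart because 10.6% to 10.8% of their words of 36 bases are repeated, the rest being flanking sequence.

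Phenylalanine tRNA genes with identical sequence differed in the same manner. SPCTRNAPHE.05, 5.22 kb from the centromere of chromosome III, had a mean ratio over H3 of 2.30 in V and 0.96 in Q, and its H3K9me3 changed by −0.60 (SE 0.13, limma adjusted p = 0.0125). SPATRNAPHE.02, 1.32 kb from the centromere of chromosome I, had 1.35 in V and 0.33 in Q, with a change that missed the threshold (−0.35, limma adjusted p = 0.119). The copies SPATRNAPHE.01 and SPCTRNAPHE.04, 52.1 kb and 739.6 kb from a centromere, had 0.38 and 0.32 in V and −0.31 and −0.29 in Q. All 7 copies of both families had a higher H3 in Q, by 0.56 to 0.81.

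Protein-coding and non-coding genes beside the centromeres also lost signal. The gene emc5, which encodes a subunit of the endoplasmic reticulum membrane protein complex, changed by −0.95 (SE 0.17, limma adjusted p = 0.00547) with an H3 change of 0.00. Its ratio over H3 was 0.33, 1.10 and 1.82 in V and −0.02, −0.13 and 0.25 in Q, and the groups did not overlap. rad50, a subunit of the MRN complex in DNA repair, changed by −0.80, and chk1, the DNA damage checkpoint kinase, by −0.69, but neither stood more than 0.61 over H3 in any library. The non-coding RNA gene SPNCRNA.359, the most enriched centromere-side window in Q, had 0.99, 2.46 and 3.57 over H3 in V and 0.43, 1.25 and 2.37 in Q and changed by −0.64, with 75.8% repeated words.

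At the mating-type locus the 2 windows differed. mat2-Pc, which encodes the P-specific factor Pc and is kept silent as a cassette, had ratios over H3 of 1.51, 3.01 and 4.09 in V and 0.52, 1.99 and 3.24 in Q. Its H3K9me3 changed by −0.79 (SE 0.11, limma adjusted p = 0.000511). mat1-Mi, at the expressed cassette, had 0.52, 0.33 and 0.11 in V and 0.26, −0.58 and −0.86 in Q, with a change of 0.00 (SE 0.36, limma adjusted p = 0.997) and 83.6% repeated words.

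Few single nuclear windows passed both thresholds, which were a limma adjusted p under 0.05 together with a change beyond 1 on the log2 scale. In ORF windows 4 of 6530 nuclear windows were called lower in Q (0.0613%) and 2 higher (0.0306%), and in TSS windows 1 of 6512 was lower (0.0154%) and 10 higher (0.154%). At any fold, 313 ORF windows fell and 725 rose (4.79% and 11.1%), and 125 TSS windows fell and 343 rose (1.92% and 5.27%). All calls depended on the replicate block. Without it limma called 0 windows of either kind, with 1167 ORF and 1272 TSS windows at an unadjusted p under 0.05, while edgeR and DESeq2, both with the block, called 43 and 40 ORF windows in all, mitochondrial ones included. Single replicates also weighed on the counts. Without replicate 1, 13 ORF windows were called higher and 9 lower, and 41 and 23 TSS windows, whereas without replicate 3 the counts were 0 and 1 in ORF and 3 and 1 in TSS windows. Without replicate 2 they were 6 and 3 in ORF windows and 37 and 2 in TSS windows. Of the windows named below, SPNCRNA.1506 in both kinds of window and isp4 and hsp9 in TSS windows kept their calls without replicate 3.

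The largest loss was at SPNCRNA.1506, the long non-coding RNA gene shown above, whose 3′ part overlaps an LTR and which lies beside coa6, a gene for a cytochrome oxidase assembly factor. Its ORF window had H3K9me3 of 311, 838 and 2277 in V and 153, 169 and 193 in Q, so that all V libraries were above all Q libraries and the Q libraries were alike. The TSS window, which covers its 5′ part, fell from 151, 683 and 2246 in V to 55.9, 88.1 and 130 in Q. The ORF change was −2.29 (SE 0.30, limma adjusted p = 0.000324). H3 changed by 0.60 there, H3K9me2 by −1.71, and the H3K9me3 change minus that of H3 was −2.89 (limma adjusted p = 0.0373). The difference from the H3K9me2 change was −0.58 (limma adjusted p = 0.68).

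SPNCRNA.394 was the other lost non-coding gene. It lies at chrII:2198477-2199461 (plus strand) between cup1 and eno101, the latter the enolase gene, and holds 0% repeated words. Its H3K9me3 was 405, 693 and 1809 in V and 327, 301 and 245 in Q, and the groups did not overlap. The change was −1.46 (SE 0.30, limma adjusted p = 0.0105). H3K9me2 changed by −1.23 in the same window, H3 by 0.50, H3K4me3 by 2.27 and RNA polymerase II phosphorylated at serine 5 by 1.57. The change was −2.04 without replicate 1 and −0.75 without replicate 3, which ended the call, as DESeq2 did through its adjusted p. The TSS window of SPNCRNA.394 changed by −0.48 (limma adjusted p = 0.15).

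Higher signal in Q was called at windows of different kinds. isp4, an oligopeptide transporter gene induced by nitrogen starvation, had the largest TSS increase, from 72.7, 84.9 and 88.5 in V to 194, 208 and 226 in Q (1.34, SE 0.18, limma adjusted p = 0.000131). The H3 of this window rose by 1.044. dad5, which encodes a subunit of the DASH complex at kinetochores, went from 83.2, 47.2 and 25.8 to 97.2, 134 and 89.9 (1.16, limma adjusted p = 0.00647), with an H3 change of 2.06. The heat shock protein gene hsp9 rose by 1.09 in its TSS window and by 1.02 in its ORF window, from 253, 182 and 111 to 386, 369 and 301, and its H3 rose by 1.01 in the TSS window. SPNCRNA.1071, which overlaps hsp9 on the same strand, rose by 1.15 with an H3 change of 0.67, and SPAC11D3.19 rose by 1.07 with an H3 change of 1.169. Without replicate 3, SPAC11D3.19 changed by 0.63. In V replicate 3 the TSS windows of dad5, SPNCRNA.1071 and SPAC11D3.19 held only 7, 9 and 6 reads. Between the libraries of replicate 1, dad5 changed by 0.22. For isp4, dad5, hsp9 and SPNCRNA.1071, on the minus strand, the TSS window is the 3′ end.

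The other 5 TSS windows gained H3K9me3 signal with H3 changes near or below 0. They belong to SPBPB10D8.03 (1.053), SPBC28E12.02 (1.03), srp72 (1.03), SPNCRNA.797 (SPAC20H4.09-antisense-1, 1.02) and sap145 (1.01). For srp72, SPNCRNA.797 and sap145, on the minus strand, the TSS window is again the 3′ end. srp72 encodes a subunit of the signal recognition particle and sap145 a component of the U2 snRNP of the spliceosome. SPNCRNA.797 and sap145 fell outside the naming rule and were named after their values were seen. Their H3 changes lay between −0.29 and 0.05, and the difference from H3 was 1.00 to 1.31, with a limma adjusted p of 0.061 to 0.062. Without replicate 3 the 5 changes were 0.64 (srp72) to 0.87 (sap145). H3K4me3 in these 5 windows changed by 1.73 to 2.50. The second ORF window called higher, SPNCRNA.1095, rested on 3 to 61 reads per library in a window with 96.0% repeated words.

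**Figure D3:**
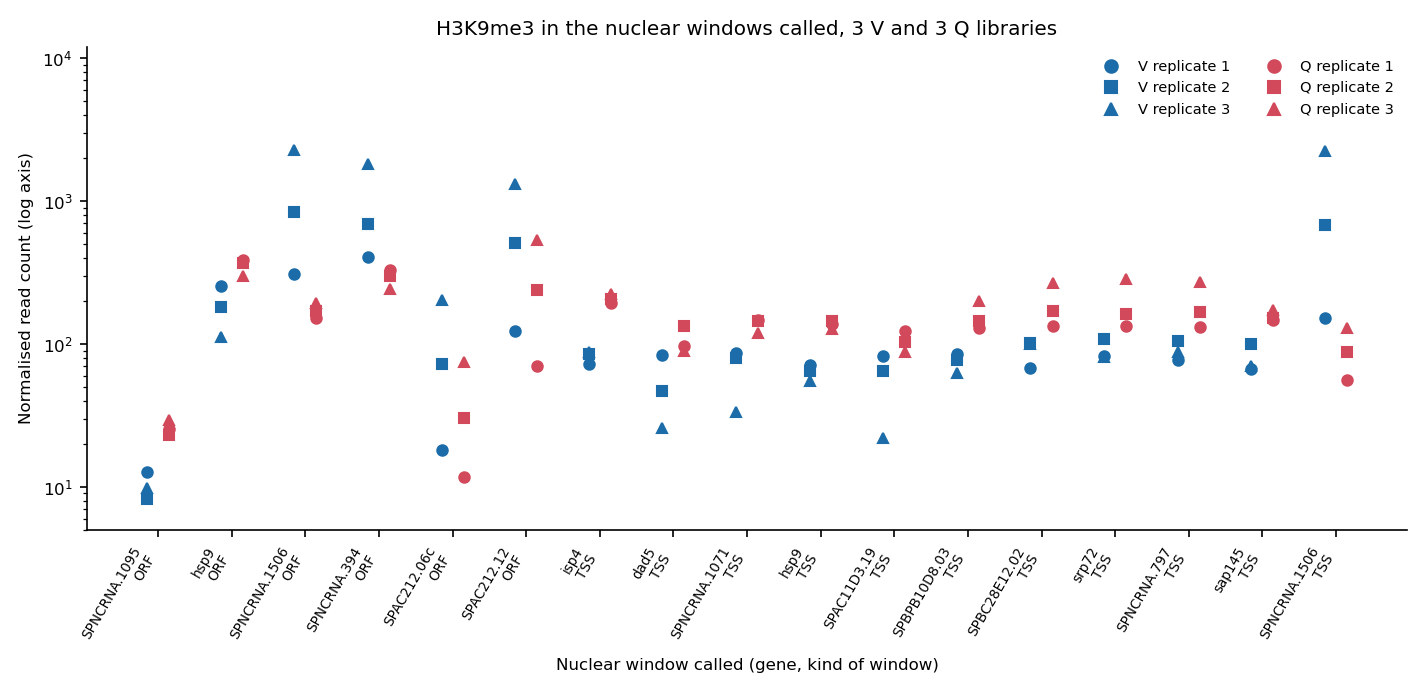
Normalised H3K9me3 read count (log axis, vertical) in each nuclear window called, ORF or TSS (horizontal axis), with a point per library for 3 V and 3 Q libraries. SPNCRNA.1506 ranges from 311 to 2277 in V and from 153 to 193 in Q in its ORF window, and isp4 from 72.7 to 88.5 and from 194 to 226 in its TSS window.

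Across nuclear windows, changes in the H3K9me3 signal ran parallel to changes in H3K4me3, a mark of transcribed genes. Across 6512 nuclear TSS windows the fold changes of the 2 antibodies had a Spearman rho of 0.725, and across 6529 ORF windows 0.725 as well. These are descriptions across windows of the same strain and states, measured in different libraries with no shared control, and windows are not independent replicates. The changes between libraries of the same number gave 0.617, 0.556 and 0.522 in TSS windows. With the changes of other antibodies the TSS rho was 0.555 for H2A.Z, 0.488 for H3K9me2, 0.406 for H3K9ac, 0.234 for RNA polymerase II phosphorylated at serine 5 and 0.170 for H3. Of the 343 TSS windows where H3K9me3 rose, 321 (93.6%) had an H3K4me3 log2 change above 1, beside 36.7% of all tested, and of the 125 where it fell, 96 (76.8%) had one below −1, beside 22.2%.

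**Figure D4:**
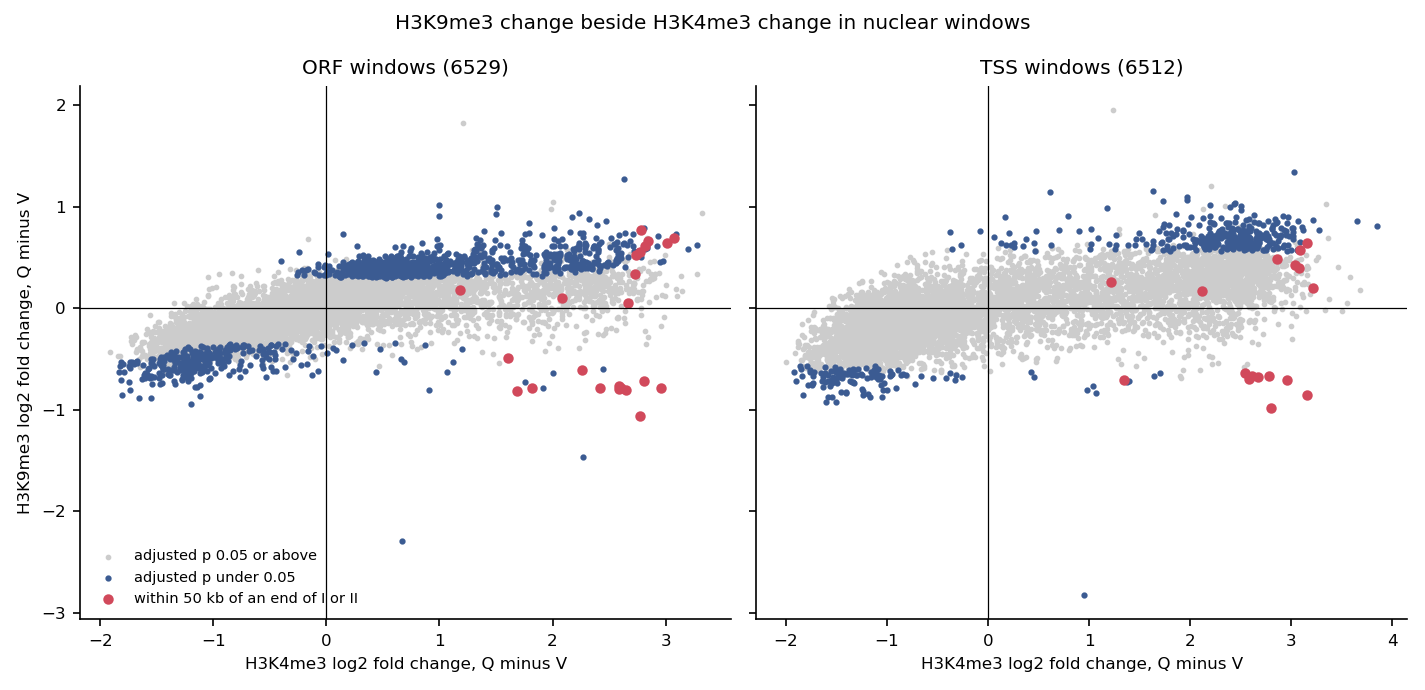
H3K9me3 change (log2, Q minus V, vertical axis) against H3K4me3 change (log2, Q minus V, horizontal axis), a point for each nuclear window tested, ORF windows on the left and TSS windows on the right. Most windows follow a rising band, and subtelomeric windows that fell in H3K9me3, with SPNCRNA.1506 and SPNCRNA.394 among ORF windows, lie below it at the right.

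The subtelomeric windows that fell lay off this relation. At the right end of chromosome I, 7 of 8 tested windows fell. Median changes there were 2.59 for H3K4me3, −1.88 for H3K9me2 and −0.78 for H3K9me3. At the left end of chromosome II, 0 of 6 fell, and the medians were 2.80, 0.08 and 0.64. Over all 24 subtelomeric windows tested, those that rose included, the medians were 2.67 for H3K4me3, −1.55 for H3K9me2 and −0.55 for H3K9me3. The part of H3K4me3 in the H3K9me3 signal was not tested. ORF windows that rose were also longer, with a median of 2848 bases, than those that fell (942 bases) or all those tested (1560.5 bases).

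Genes with roles in H3K9 methylation and quiescence were read in ORF windows as lists. Of the 24 genes of H3K9 methylation and RNA interference, 5 rose and 0 fell at an adjusted p under 0.05 (limma), beside 11.1% and 4.79% of all nuclear windows, with a median change of 0.21. In TSS windows 0 rose and 1 fell, beside 5.27% and 1.92%, with a median of −0.09. The ORF windows that rose were those of clr2 (0.59), red1 (0.46), clr4 itself (0.46), rik1 (0.34) and clr1 (0.32), that is subunits of the SHREC deacetylase complex (clr1, clr2), of the Clr4 complex (rik1) and a factor of meiotic RNA elimination (red1). The Argonaute gene ago1 had −0.41 and the RNA-dependent RNA polymerase gene rdp1 −0.47, neither past the threshold. The list was not enriched over H3 in V, at −0.11, −0.09 and −0.10, and stood at 0.02, 0.21 and 0.35 in Q.

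Of the 24 nitrogen starvation genes, 9 rose and 0 fell in ORF windows, beside the same 11.1% and 4.79%, with a median of 0.26. In TSS windows 4 rose and 0 fell, beside 5.27% and 1.92%, with a median of 0.04. The largest were isp7 (808, 974 and 898 in V, 1630, 1772 and 1710 in Q), isp4, the proline permease gene put4 (0.76), mei2, the RNA-binding switch of meiosis (0.74), and the ammonium transporter gene amt1 (0.67). H3 rose in the same windows, by 1.25 in isp7, 0.91 in isp4, 0.84 in put4, 0.58 in mei2 and 0.91 in amt1. Over H3 the list was at −0.01, −0.01 and −0.07 in V and at 0.03, −0.12 and −0.27 in Q. Among the 16 core quiescence genes 6 rose and 0 fell in ORF windows (beside 11.1% and 4.79%), with a median of 0.25, and 2 rose and 0 fell in TSS windows (beside 5.27% and 1.92%). zym1, a metallothionein gene, changed by 0.46 with an H3 change of 0.55, and mel1, an alpha-galactosidase gene, by 0.51 with an H3 change of −0.24.

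Among the 13 windows at meiotic heterochromatin islands, 2 fell and 1 rose (limma adjusted p under 0.05), beside 4.79% and 11.1% of all nuclear windows. mug45 (−0.58) and vps29 (−0.52), a retromer subunit gene beside an island, fell, crs1, a meiotic cyclin gene, rose by 0.53, and the median was −0.18. mei4, the meiotic forkhead transcription factor gene, stood at 0.04, 0.31 and 0.85 over H3 in V and at 0.01, −0.03 and −0.22 in Q, and its change of −0.22 did not pass the threshold (limma adjusted p = 0.33). As a list the islands were at 0.08, 0.10 and 0.36 in V and at −0.01, −0.12 and −0.25 in Q, without overlap (two-sided exact permutation p = 0.1, the smallest possible). Such a fall over H3 was not particular to the islands. The median H3K9me3 change minus the H3 change was −0.20 for them. It was −0.44 for the euchromatic reference genes and −0.04 over all nuclear windows.

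Repeated genes gave little that could be tested. Of 8 Tf2 retrotransposon windows 1 passed the filter on low values, and of 42 nuclear ribosomal RNA windows 32 did, with 0 falling and 0 rising (limma adjusted p) and a median of 0.00. The 11 ribosomal RNA windows at the ends of chromosome III were nevertheless enriched over H3, at 0.67, 2.48 and 3.59 in V and at 0.30, 0.80 and 1.69 in Q. Of 219 windows tested that overlap an LTR, 23 rose and 6 fell, with a median of 0.05, and these shares are no larger than the 11.1% and 4.79% of all nuclear windows. SPNCRNA.1506 (−2.29) was among the 6.

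The change of H3K9me3 was also tested against that of H3 in 1 model over both antibodies. In ORF windows 42 of 6530 nuclear windows fell relative to H3 (0.643%) and 0 rose, and in TSS windows SPNCRNA.1506 alone fell. The ORF count was 276 without replicate 1, 0 without replicate 2 and 20 without replicate 3, and the TSS count 339, 18 and 7. In all 42 the H3 value rose, in 37 by over 0.5, and only 11 of the 42 fell in H3K9me3 itself at an adjusted p under 0.05. By kind, 12 were non-coding RNA genes, 10 ribosomal protein genes and 9 tRNA genes, and 7 lay beside a centromere and 2 in subtelomeres. For the 117 tRNA windows tested, the median change was 0.12 for H3K9me3, 0.81 for H3 and −0.67 for the difference. The same pattern held for the translation factor gene tef103, whose H3K9me3 changed by 0.55, its H3 by 1.57 and the difference by −1.01, in a window with 60.1% repeated words.

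Windows with a log2 ratio over H3 above 1 in V replicates 2 and 3, a threshold set after the values were seen, numbered 41. Of these, 14 were subtelomeric, 10 beside a centromere and 17 elsewhere. In Q replicates 2 and 3, 17 remained above 1, namely all 14 subtelomeric windows, SPNCRNA.359, SPCTRNALEU.11 and SPCTRNAPHE.05 beside the centromere, and 0 of those elsewhere. Among the 17 elsewhere, 16 had an H3 change above 0.5. Because the 41 were picked on high V values, lower values in Q follow in part from that choice. Picked on Q replicates 2 and 3 alone by the same threshold, 17 windows passed, 14 of them subtelomeric and 3 beside a centromere.

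H3K9me2, the lower methylation state, was compared directly with H3K9me3 in the same manner. No window differed in its change between the 2 marks (limma, 0 called in either kind of window, lowest adjusted p 0.0854 in ORF and 0.974 in TSS windows, with 551 and 270 at an unadjusted p under 0.05). Without replicate 1, 45 ORF and 96 TSS windows were called. As shares of reads, H3K9me3 over H3K9me2 in subtelomeric windows was −0.46, −1.41 and 0.11 (log2) in V and 0.14, 0.06 and 0.79 in Q. The mean rose by 0.92 with overlapping groups (two-sided exact permutation p = 0.2). For mating-type windows the ratio was −0.18, −1.28 and 0.33 in V and 0.39, 0.30 and 1.19 in Q (exact permutation p = 0.2). In both lists Q was above V at each replicate number, so that H3K9me3 was lower in Q relative to H3 but higher relative to H3K9me2.

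Mitochondrial DNA carries no histones, and reads there do not come from the mark. All 38 mitochondrial windows had lower H3K9me3 values in Q, called in both kinds of window (100% of the 38), with a median ORF change of −1.45 and a range of −1.55 to −1.37. The fall was alike in all 38 windows and not particular to any kind of gene. cob1 (cytochrome b) went from 955, 2530 and 2166 in V to 262, 920 and 1000 in Q (−1.48). cox1 went from 723, 1840 and 1474 to 211.9, 702 and 746 (−1.38). The change was −1.48 for cox2, −1.39 for cox3, −1.48 for atp6, −1.51 for atp8, −1.38 for atp9 and −1.46 for 21S_rRNA. The ends of the range were var1, for a ribosomal protein (−1.55), and 15S_rRNA (−1.37).

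The share of ORF reads in mitochondrial windows gave the same picture by library. It was 0.974%, 2.30% and 1.73% in V and 0.242%, 0.823% and 0.785% in Q, or 1.67% ± 0.665 against 0.617% ± 0.325 (SD, n = 3 each). Every V library was above every Q library (two-sided exact permutation p = 0.1, the smallest possible). In TSS windows the share was 2.24%, 6.24% and 5.22% in V and 0.675%, 2.45% and 2.65% in Q, and the groups overlapped (two-sided exact permutation p = 0.3). In the ORF windows of the H3 libraries it was 0.585%, 0.615% and 0.224% in V and 0.272%, 0.514% and 0.771% in Q (exact permutation p = 0.9). In the H3K9me2 libraries it was 1.169%, 2.48% and 3.18% in V and 0.201%, 0.875% and 1.79% in Q (exact permutation p = 0.2). Relative to H3, 0 of the 38 ORF windows were called (limma, median difference −1.61, lowest adjusted p 0.0617), with all 38 at an unadjusted p under 0.05. The part of mitochondrial DNA content in this difference was not tested. In TSS windows the 38 calls became 1 without replicate 2 and 12 without replicate 3.

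**Figure D5:**
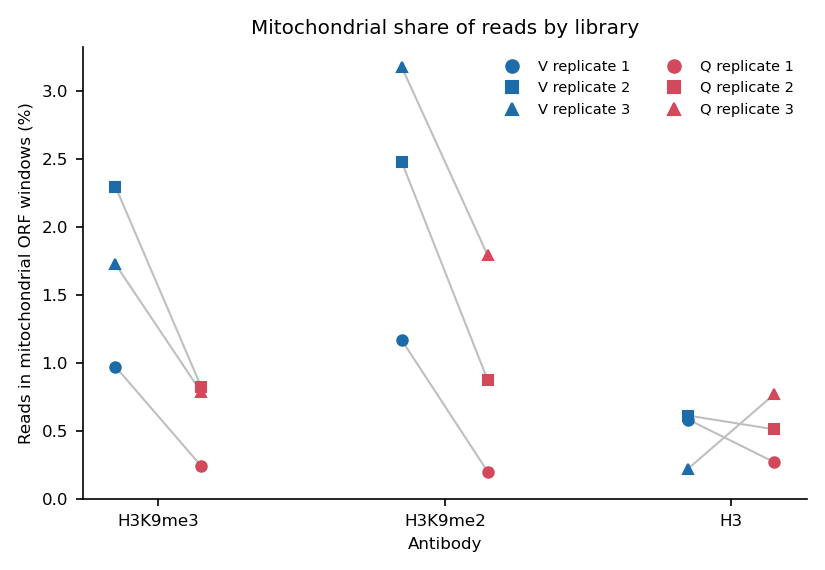
Share of ORF-window reads in the 38 mitochondrial windows (percent, vertical axis) in V and Q libraries of H3K9me3, H3 and H3K9me2 (horizontal axis), a point per library. Lines join V and Q libraries of the same replicate number. For H3K9me3 the V libraries lie between 0.974% and 2.30% and the Q libraries between 0.242% and 0.823%, and for H3 the groups overlap.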

How the data were processed

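The members and gene lists were chosen with earlier results of these data known. Per the labels and the methods of the study, chromatin was crosslinked, precipitated and sequenced in biological triplicates, and reads were aligned with BWA 0.7.17 and handled with SAMtools 1.17 and deepTools 3.3.2 (submitters' notes, build ASM294v2). The deposited signal is reads per window divided by a DESeq2 size factor. Multiplied back, 100% of values were whole reads (tolerance 1e-05). Whether the Drosophila spike-in entered the factors is not stated in the sources read. Columns of the authors' own comparisons, fold changes and p-values, were not used.

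Windows that reached a value of 10 in 3 of 6 libraries were tested with limma 3.58.1 on log2(value + 1), with trend, the replicate number as a block and Benjamini-Hochberg adjustment, and called where the adjusted p was under 0.05 and the change exceeded 1 on the log2 scale. Folds on this scale understate changes of low windows. Sums over lists used an exact permutation test. Named are, per kind of window, the up to 8 largest called changes in each direction (with fewer, those of lowest p up to 4), the members of fixed lists, mitochondrial genes with a symbol and the extremes of each region list. Alternatives were other scalings, pseudocounts and filters, edgeR 4.0.16 and DESeq2 1.42.0 on the recovered reads, no block, H3 or H3K9me2 as reference and leaving out each replicate. Gene positions and sequences are from ASM294v3, to which 6521 of 6613 windows were matched by identifier. The windows are the deposited ones, and distances use the chromosome lengths of the reference and centromere ends written by hand. No 2 libraries of a group were alike within sampling noise. The steps were tested on simulated data.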

Additional observations from a re-analysis of the deposited data

How the results depend on the processing

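Counts of called windows are given as the value and then the alternatives that moved it. ORF windows called higher in Q (2) became 0 with library totals as the scale, 0 with DESeq2, 0 relative to H3, and 1 with edgeR or a pseudocount of 5, and lay between 0 and 13 with a replicate left out. ORF windows called lower (4) became 2 with DESeq2 and 42 relative to H3, and ranged from 1 to 9. TSS windows called higher (10) became 6 with a pseudocount of 5, 3 with edgeR, 2 with DESeq2 and 0 relative to H3, and ranged from 3 to 41. TSS windows called lower (1) became 2 with library totals and ranged from 1 to 23. Mitochondrial calls (38 in each kind of window) became 0 relative to H3, and those in TSS windows ranged from 1 to 38. Calls relative to H3 ranged from 0 to 276 in ORF windows and from 7 to 339 in TSS windows, and calls relative to H3K9me2 (0) from 0 to 45 and from 0 to 96.

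Without the replicate block limma called 0 windows in each of these counts except those relative to H3K9me2, which were 0 in both fits. The deviations of same-numbered V and Q libraries from their group means correlated by 0.61, −0.11 and 0.56 in ORF windows. In both states replicate 1 was the deepest library and replicate 3 the shallowest. Whether the correlations at replicates 1 and 3 reflect this shared order or paired cultures was not tested. The block used the numbers all the same. V replicate 2 correlated more with Q replicate 3 (0.20) than with its own number.

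The 22 windows named include SPNCRNA.797 and sap145, which fell outside the rule. All 22 kept an adjusted p under 0.05 with edgeR, with no filter, with a pseudocount of 5 and without replicate 1. A change beyond 1, which a call also needs, was kept by fewer, as the counts above show. With DESeq2 10 lost the adjusted p, without replicate 3 7 lost it and without replicate 2 4 did, and without the block all 22 did. Relative to H3, 14 lost it and 4 reversed, namely isp7 (−0.32) and isp4 (−0.0054) in ORF windows and dad5 (−0.90) and SPAC11D3.19 (−0.10) in TSS windows. The falls over H3 in subtelomeric, centromere-side and mating-type windows reversed with H3K9me2 as the reference (0.92, 0.12 and 1.00 on the log2 scale). The cause was not tested. Depth in TSS windows went down to 172493 reads in V replicate 3.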
